A study of Rattus norvegicus with 18 samples.

Results

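Mature oligodendrocytes wrap axons in myelin, and 33 genes that these cells use to build and maintain the sheath were followed in the prefrontal cortex (PFC) of rat pups. The genes were found by symbol in the deposited gene tables, which list 32623 genes per pup. They matched 34 rows, because Tmem125 is listed under 2 identifiers. RNA was taken from 18 Sprague Dawley pups at postnatal day 14 (P14), with 6 pups in each of 3 groups. SAL pups came from dams given saline. PNO pups came from dams gavaged with the opioid oxycodone (oxy) at 15 mg/kg/day from parturition onward, so that exposure was postnatal only. IUO dams began at 10 mg/kg/day for 5 days, went up in steps of 0.5 mg/kg/day over 10 days to 15 mg/kg/day, were then mated, and were dosed through gestation and nursing. IUO exposure therefore adds a period in utero to the postnatal one, and the 3 comparisons ask how each exposure relates to saline and how the exposures relate to each other. The labels name neither the litter nor the sex of a pup, and p-values measure the spread between these pups, some of which may share a dam.

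Myelin is a stack of compacted glial membrane that is rich in galactolipids and cholesterol and holds a small set of abundant proteins. In rodents it forms mostly after birth, when oligodendrocyte precursors leave the cell cycle and switch on a shared program under transcription factors such as SOX10 and MYRF. The cortex is myelinated late compared with the brainstem and the underlying white matter, so a pup at P14 is still in the course of this process. In tissue RNA, fewer oligodendrocytes and less myelin RNA per oligodendrocyte cannot be told apart.

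Promoters were found by symbol in RefSeq (GRCr8) for 27 of the 33 genes. Mog, Ermn, Myrf, Evi2a, Lpar1 and Car2 were not matched. Letters of 3 motifs linked to oligodendrocyte transcription factors were searched on both strands of the 300 bases around each start: a SOX-type motif (ACAAAG or ACAATG), a MYRF-type motif (CTGGCAC or CTGGTAC) and an E-box (CAGCTG). None of these motifs contains another. The MYRF-type letters stood in 7 of the 27 promoters (25.9%), those of Mag, Cnp, Mal, Cldn11, Opalin, Hapln2 and Adamts4, and in 6.78% of all 33469 promoters of that length. The SOX-type letters stood in 25.9% of the genes' promoters and 29.1% of all, and the E-box in 18.5% and 15.1%. A match is a description of the letters and not a binding site. The 250 bases before the start are printed for the 4 matched genes with the largest difference between IUO and PNO, 5′ to 3′ on the coding strand, with all 3 motifs in capitals. Mobp, at chr8:128746982-128747231 on the plus strand, holds 8 copies of the SOX-type letters, all read on the opposite strand. Mal, at chr3:135341424-135341673 on the minus strand, holds the MYRF-type letters once. Opalin, at chr1:249858191-249858440 on the minus strand, and Hapln2, at chr2:175794439-175794688 on the minus strand, hold all 3 motifs.
Hapln2: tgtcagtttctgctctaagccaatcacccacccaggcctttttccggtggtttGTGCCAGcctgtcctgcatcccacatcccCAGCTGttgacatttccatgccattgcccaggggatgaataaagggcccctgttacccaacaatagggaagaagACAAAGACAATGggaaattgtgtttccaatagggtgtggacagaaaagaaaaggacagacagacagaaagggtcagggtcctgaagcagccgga
Mal: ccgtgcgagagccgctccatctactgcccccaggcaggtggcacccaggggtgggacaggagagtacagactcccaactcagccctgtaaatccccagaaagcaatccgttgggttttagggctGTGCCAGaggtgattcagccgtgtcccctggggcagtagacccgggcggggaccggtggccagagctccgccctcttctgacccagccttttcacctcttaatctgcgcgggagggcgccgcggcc
Mobp: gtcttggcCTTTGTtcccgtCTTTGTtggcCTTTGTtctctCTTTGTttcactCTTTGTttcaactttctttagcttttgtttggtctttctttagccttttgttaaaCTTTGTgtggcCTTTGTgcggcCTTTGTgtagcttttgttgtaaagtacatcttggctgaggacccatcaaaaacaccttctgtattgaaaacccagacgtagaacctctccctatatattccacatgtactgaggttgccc
Opalin: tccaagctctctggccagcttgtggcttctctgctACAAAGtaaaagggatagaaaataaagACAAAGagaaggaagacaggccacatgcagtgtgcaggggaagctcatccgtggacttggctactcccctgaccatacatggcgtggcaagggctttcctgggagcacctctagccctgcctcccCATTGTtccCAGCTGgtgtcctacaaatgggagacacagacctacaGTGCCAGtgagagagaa

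Summed expected counts lay between 18381819 and 26084780 per pup, with a median of 22726306, and all 33 genes passed the filter on low counts, Tmem125 through 1 of its 2 identifiers. The labelled tissue was checked against markers. All 8 cortical layer markers were detected, with a summed level between 299.0 and 613.4 CPM (counts scaled by the library total and TMM factor of each pup), and all 12 markers of striatal neurons were detected too, between 330.7 and 2336 CPM. Each of the 33 genes had at least 15 expected counts in every pup. Together the 33 genes took between 0.196% and 1.22% of the normalized counts of a pup.

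The genes were set in order by their median TPM over the pups, TPM being a share of transcripts within a pup that takes gene length into account. Mbp, the basic protein that holds the cytoplasmic faces of the membrane together, had a median of 2052 TPM over the 18 pups and ranked 30th among all genes listed. Cnp, a phosphodiesterase of non-compact myelin, followed at 384.6 TPM, and Sirt2, a tubulin deacetylase found in myelin, at 374.5 TPM. The range of Cnp, from 201.1 to 948.3 TPM, enclosed that of Sirt2, from 220.1 to 662.3 TPM. Ranges over pups do not show the order of genes within each pup, which was not examined. Cldn11 (156.2 TPM), Mag (149.9 TPM) and Mobp (124.7 TPM) came next, again with overlapping ranges. The lowest medians were those of Plekhh1 (4.84 TPM), Hapln2 (3.66 TPM) and Carns1 (3.13 TPM).

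**Figure D1:**
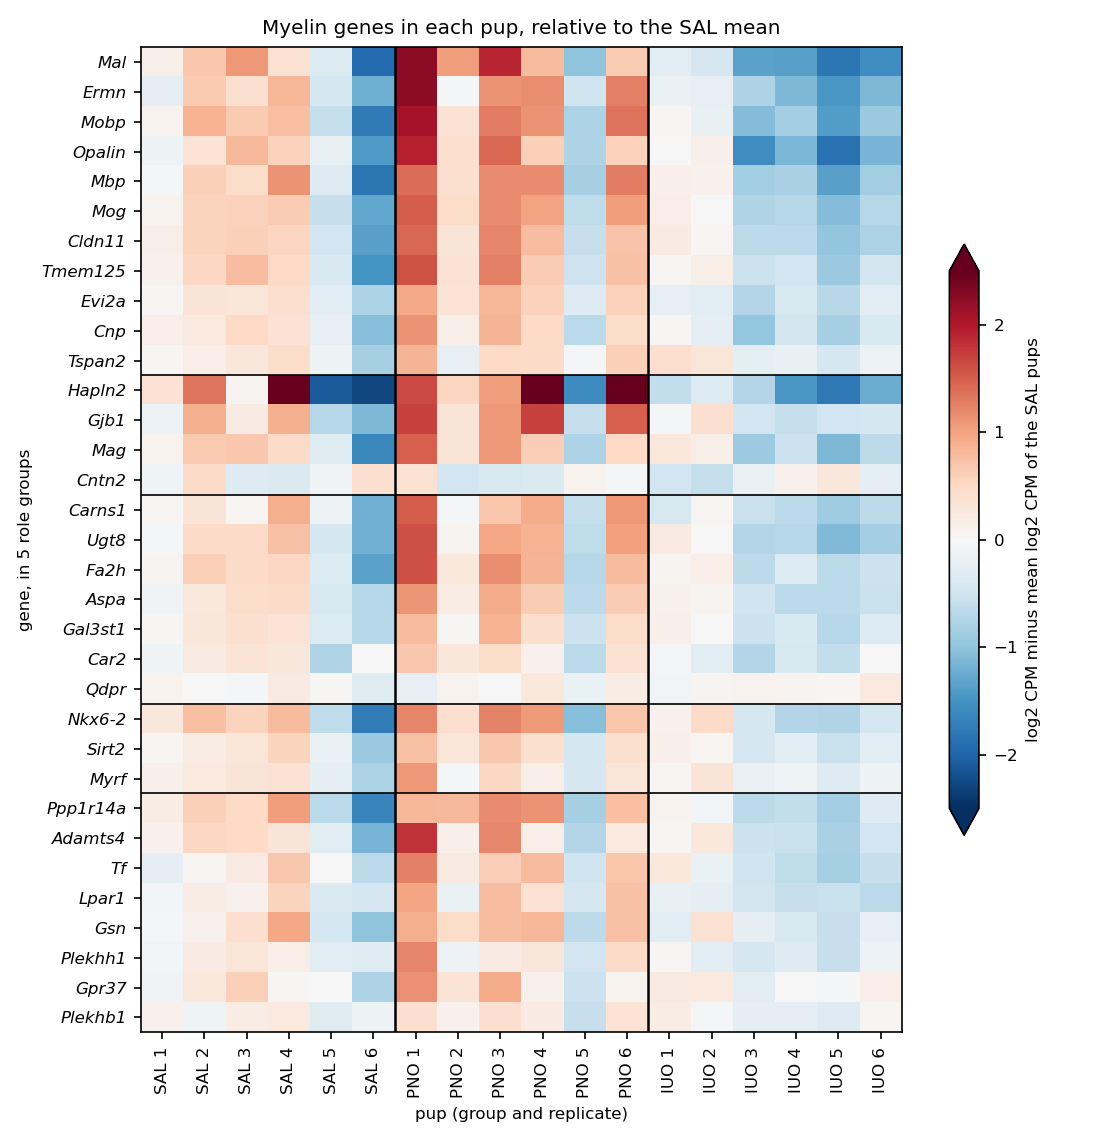
Level of each of the 33 genes (rows, in 5 role groups) in each of the 18 pups (columns), as log2 CPM minus the mean log2 CPM of the 6 SAL pups; red is higher and blue is lower, and colors saturate beyond the ends of the scale. In most rows PNO replicates 1, 3, 4 and 6 and SAL replicates 2 to 4 are red, some of them faintly. SAL replicates 5 and 6, PNO replicate 5 and IUO replicates 3 to 6 are blue in most rows, while Qdpr and Cntn2 stay pale.

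The pups of a group differed widely in these genes. The summed level of the 33 genes ranged from 1962 to 8759 CPM in SAL (median 5848), from 3077 to 12190 CPM in PNO (median 9451) and from 2450 to 5298 CPM in IUO (median 3206). In this sum the highest pup had 6.21 times the lowest. Mbp alone held much of it, 6372 of the 12190 CPM in PNO replicate 1 and 686.8 of the 1962 CPM in SAL replicate 6. The mean log2 CPM of the 33 genes, in which each gene counts alike, ran from 4.27 in SAL replicate 6 to 6.57 in PNO replicate 1. In SAL the lowest pup was replicate 6, with replicate 5 next at 3986 CPM. In PNO, replicate 5 was the lowest at 3077 CPM, and the other 5 pups lay between 6111 and 12190 CPM. In IUO, replicates 1 and 2 were the highest at 5298 and 5060 CPM, and the other 4 lay between 2450 and 3216 CPM. The 3 groups overlapped, and without PNO replicate 5 every PNO pup would lie above every IUO pup.

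Between IUO and PNO, 32 of the 33 genes had the lower mean in IUO, as did 50.1% of all 15703 genes tested, and Qdpr had the higher. The log2 fold changes had a median of -1.01, beside 0.00 over all genes. No member passed an adjusted p of 0.05 in edgeR's quasi-likelihood test, by which 10 genes (0.0637%) were called. At an unadjusted p under 0.05, 27 of the 33 were lower and none was higher, where 9.14% of all genes passed as lower. All 27 were also lower by at least 1.5-fold, as were 2.22% of all genes. The smallest adjusted p was 0.0723, so none of these differences passed correction over all genes. The count of calls depended on the test: DESeq2 called 18 members (2.78% of all genes) and limma-voom with sample quality weights called 27 (12.9%). On only the 12 IUO and PNO pups edgeR called 1, Evi2a (0.469%). Without PNO replicate 5 edgeR called 10 (0.601%), and without any other single PNO or IUO pup it called none. All members called in these settings were lower in IUO. No member separated the groups completely, as 0.86% of all genes did in that direction, while in 19 of the 33 genes 5 of the 6 PNO pups lay above every IUO pup, a pattern seen in 4.09% of all genes.

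**Figure D2:**
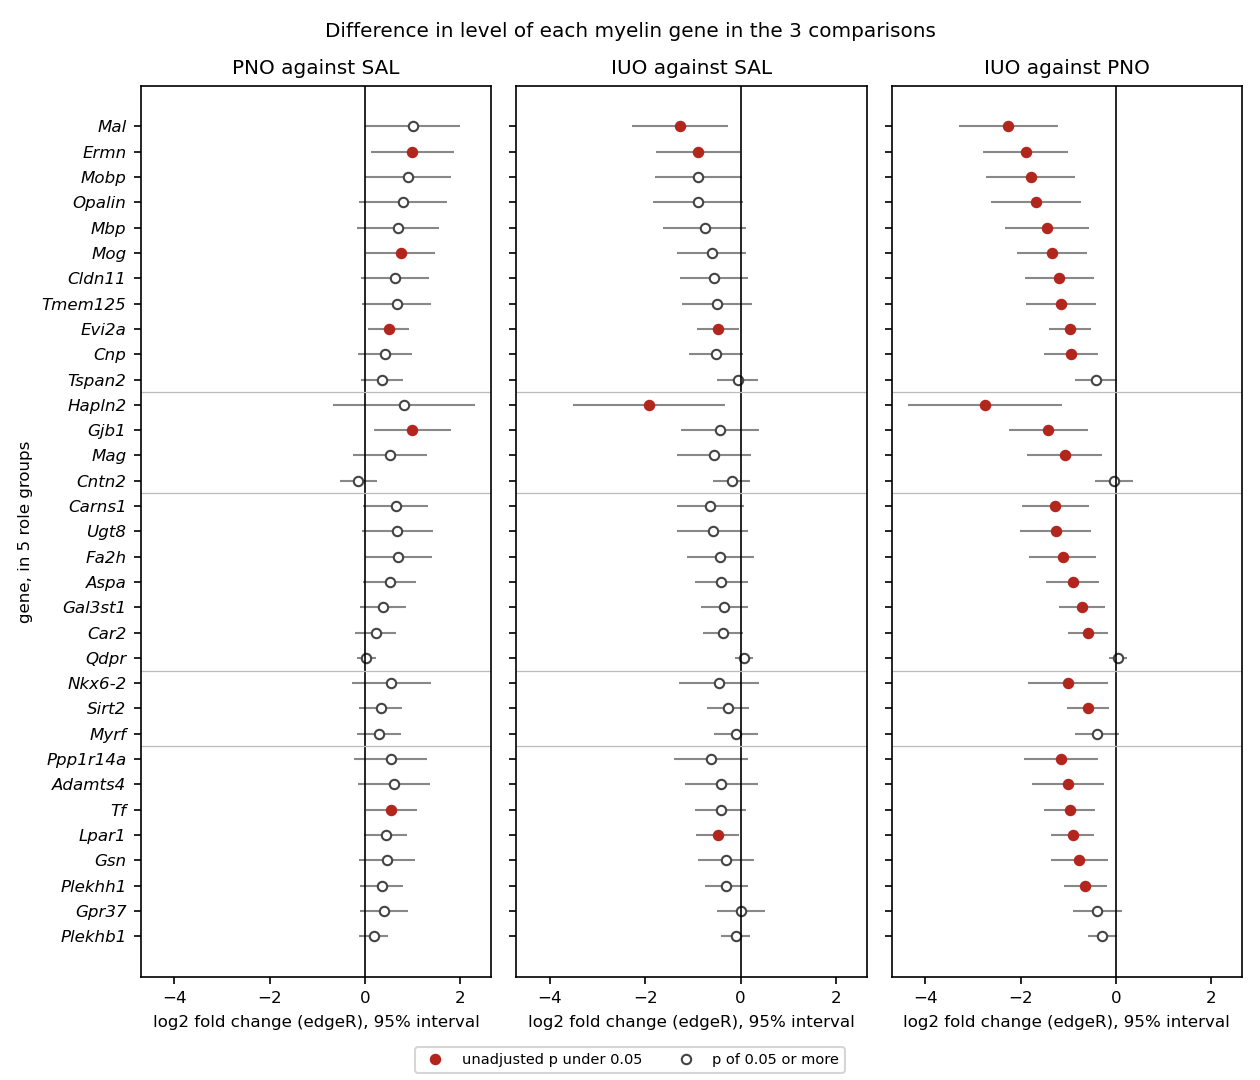
Log2 fold change of each of the 33 genes in the 3 comparisons from edgeR, with 95% intervals as lines; filled points have an unadjusted p under 0.05 and open points do not. In IUO against PNO, 27 points are filled and lie left of 0, against 5 filled points in each of the other comparisons.

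Among the 11 sheath and membrane genes, 10 were lower in IUO than in PNO at an unadjusted p under 0.05, with a median log2 fold change of -1.35. Mbp (ENSRNOG00000016516) ranged from 686.8 to 5261 CPM in SAL (median 2844), from 1374 to 6372 CPM in PNO (median 5502) and from 950.8 to 2629 CPM in IUO (median 1362). The lowest PNO pup, replicate 5, lay among the IUO pups, and the other 5 lay above all of them. The log2 fold change of Mbp was -1.45 ± 0.42 (SE), with an adjusted p of 0.129 from edgeR. Mal, a proteolipid of raft-like membrane and vesicle traffic (ENSRNOG00000015445), ranged from 12.9 to 105.1 CPM in SAL (median 60.2), from 24.9 to 233.8 CPM in PNO (median 94.98) and from 14.2 to 41.2 CPM in IUO (median 19.4). PNO replicates 1 and 3 stood highest and IUO replicates 3 to 6 were below every PNO pup. Its log2 fold change of -2.26 ± 0.49 was the largest of the sheath genes, with an adjusted p of 0.0725 from edgeR.

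Ermn, which encodes ermin, an actin-binding protein of mature oligodendrocytes (ENSRNOG00000021472), ranged from 3.01 to 12.7 CPM in SAL (median 7.79), from 5.01 to 34.1 CPM in PNO (median 15.9) and from 2.56 to 6.38 CPM in IUO (median 3.70). PNO replicate 1 stood highest, and the next PNO pup had 17.2 CPM. The log2 fold change was -1.89 ± 0.42 and the adjusted p from edgeR 0.0777. Evi2a, a small membrane protein whose gene lies in an intron of Nf1 (ENSRNOG00000022764), had the smallest p of all members. It ranged from 8.20 to 19.2 CPM in SAL (median 16.0), from 11.4 to 27.6 CPM in PNO (median 21.3) and from 8.52 to 12.3 CPM in IUO (median 11.3). The difference was modest in size and the IUO pups were tightly grouped, with a log2 fold change of -0.96 ± 0.21 and an adjusted p of 0.0723 from edgeR.

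Mobp, a further basic protein of compact myelin, ranged from 83.1 to 603.0 CPM in PNO and from 54.4 to 146.0 CPM in IUO, a log2 fold change of -1.79 ± 0.44. Opalin, a sialylated membrane glycoprotein, ranged from 10.9 to 72.1 CPM in PNO and from 5.04 to 20.5 CPM in IUO, a log2 fold change of -1.68 ± 0.45. In both genes PNO replicate 5 alone fell within the IUO range. Mog, a surface glycoprotein of the outermost lamella, had a log2 fold change of -1.35 ± 0.35, Cldn11, the claudin of the sheath's tight junctions, one of -1.19 ± 0.34, and Tmem125 one of -1.15 ± 0.35. The second identifier of Tmem125 held at most 9.95 counts in a pup, and reads may be shared between both. Cnp had a log2 fold change of -0.94 ± 0.27. Tspan2, a tetraspanin, was the exception in this group, with ranges of 139.3 to 287.6 CPM in PNO and 118.9 to 214.2 CPM in IUO and a log2 fold change of -0.42 ± 0.21.

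**Figure D3:**
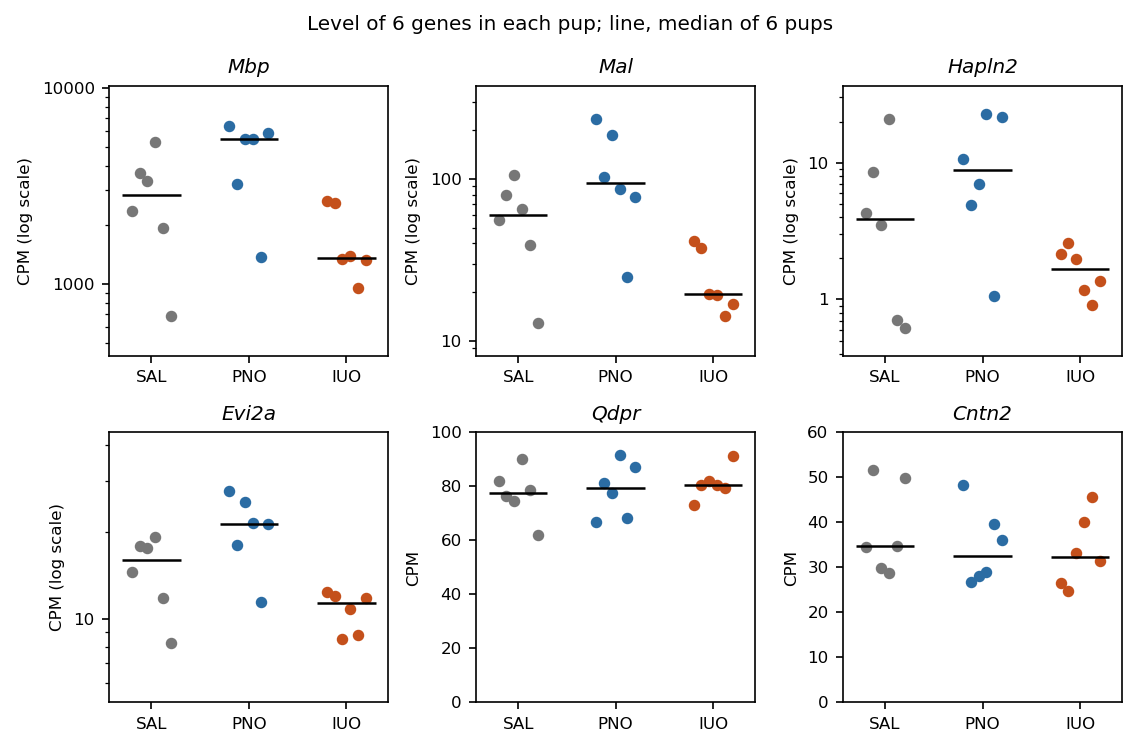
CPM of Mbp, Mal, Hapln2 and Evi2a (log axis) and of Qdpr and Cntn2 (linear axis from 0) in each pup, with a line at the median of the 6 pups of a group. For Mbp, Mal, Hapln2 and Evi2a 5 of the 6 PNO pups lie above all IUO pups, while Qdpr and Cntn2 have overlapping groups.

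Of the 4 genes for adhesion, the node and gap junctions, 3 were lower in IUO than in PNO at an unadjusted p under 0.05. Hapln2, a link protein of the extracellular matrix at the node of Ranvier, had the largest difference of the 33 genes. It ranged from 0.618 to 20.8 CPM in SAL (median 3.90), from 1.06 to 22.7 CPM in PNO (median 8.80) and from 0.906 to 2.61 CPM in IUO (median 1.66). It was also the most variable, and the SAL and PNO pups fell across almost the same range. Its log2 fold change was -2.75 ± 0.77, with an adjusted p of 0.126 from edgeR, and its expected counts were as low as 15 in 1 pup. Gjb1, which encodes connexin 32 of the gap junctions between layers of myelin, ranged from 2.77 to 14.2 CPM in PNO and from 2.80 to 5.61 CPM in IUO, a log2 fold change of -1.42 ± 0.39. Mag, an adhesion protein of the membrane next to the axon, had a log2 fold change of -1.08 ± 0.38. Cntn2, a cell adhesion protein of the juxtaparanode that neurons also make, did not follow: it ranged from 26.8 to 48.3 CPM in PNO and from 24.8 to 45.6 CPM in IUO, and its log2 fold change of -0.044 had a 95% interval from -0.44 to 0.35. The sign of this value turned under limma-voom (0.13) and with a striatal marker score as a covariate (0.066).

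Of the 7 enzymes, 6 were lower in IUO than in PNO at an unadjusted p under 0.05. The enzymes of galactolipid synthesis had log2 fold changes of -1.26 ± 0.36 for Ugt8, which makes galactosylceramide, -1.12 ± 0.34 for Fa2h, which hydroxylates its fatty acid, and -0.71 ± 0.23 for Gal3st1, which sulfates it. Ugt8 ranged from 84.0 to 399.9 CPM in PNO and from 61.0 to 152.7 CPM in IUO. Aspa, which splits N-acetylaspartate into acetate and aspartate, ranged from 8.68 to 29.4 CPM in PNO and from 8.60 to 14.8 CPM in IUO, a log2 fold change of -0.91 ± 0.26. The other values were -1.27 ± 0.33 for Carns1, the carnosine synthase, and -0.58 ± 0.20 for Car2, a carbonic anhydrase. Qdpr, which regenerates tetrahydrobiopterin and is used by many cell types, ranged from 66.8 to 91.8 CPM in PNO and from 73.3 to 91.4 CPM in IUO. Its log2 fold change was 0.043, with a 95% interval from -0.15 to 0.24, and limma-voom gave -0.020.

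Among the 3 regulators of transcription and chromatin, the transcription factor gene Myrf ranged from 45.6 to 129.7 CPM in PNO and from 49.1 to 76.3 CPM in IUO. Its log2 fold change of -0.39 ± 0.22 did not pass even without correction, and it was -0.19 without PNO replicate 1. Nkx6-2, a homeodomain factor of maturing oligodendrocytes, ranged from 3.36 to 17.0 CPM in PNO and from 4.18 to 9.94 CPM in IUO, a log2 fold change of -1.01 ± 0.40. Sirt2 had a log2 fold change of -0.59 ± 0.21. The latter 2 genes had an unadjusted p under 0.05.

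Of the 8 genes for receptors, signalling and other functions, 6 were lower in IUO than in PNO at an unadjusted p under 0.05. Lpar1, a receptor for lysophosphatidic acid, ranged from 22.7 to 44.7 CPM in SAL (median 30.9), from 22.7 to 60.3 CPM in PNO (median 45.0) and from 19.1 to 26.6 CPM in IUO (median 21.4). In 4 IUO pups it was below every PNO pup and also below every SAL pup, and its log2 fold change was -0.91 ± 0.22 with an adjusted p of 0.0919 from edgeR. Ppp1r14a, an inhibitor of myosin phosphatase, had a log2 fold change of -1.15 ± 0.37. Adamts4, a protease that cleaves aggrecan-type proteoglycans, had one of -1.01 ± 0.36. Tf, the iron carrier transferrin, had one of -0.97 ± 0.26, and Gsn, the actin-severing protein gelsolin, one of -0.77 ± 0.28. Plekhh1, a protein with pleckstrin homology domains, had one of -0.64 ± 0.22. Without PNO replicate 1 the values of Adamts4 and Plekhh1 were -0.64 and -0.39. Gpr37, an oligodendrocyte receptor, and Plekhb1, another protein with a pleckstrin homology domain, had log2 fold changes of -0.39 ± 0.24 and -0.28 ± 0.14 and an unadjusted p above 0.05, and that of Gpr37 was -0.20 without PNO replicate 1.

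Between PNO and SAL, PNO had the higher level in 32 of the 33 genes, where 50.8% of all genes were higher, and Cntn2 was the exception. The median of the log2 fold changes was 0.54. No member passed an adjusted p of 0.05 in edgeR, as did no other gene (0.0%), and no member was called by DESeq2 (0.00637% of all genes) or limma-voom (0.0%). At an unadjusted p under 0.05, 5 members were higher, where 1.89% of all genes passed as higher. These were Ermn (0.99 ± 0.41), Gjb1 (0.99 ± 0.39), Mog (0.75 ± 0.34), Tf (0.55 ± 0.26) and Evi2a (0.49 ± 0.21). The value of Ermn was 0.62 without PNO replicate 1. The adjusted p from edgeR was 0.912 for each. Mbp had a log2 fold change of 0.69 ± 0.41 and Mal one of 1.00 ± 0.47. The groups overlapped in every gene, and the count of 5 moved from 1 to 25 when single pups were left out: it was 25 without PNO replicate 5, 14 without SAL replicate 4, 12 without PNO replicate 2, 10 without SAL replicate 3, 2 without PNO replicate 3 or SAL replicate 1, and 1 without PNO replicate 1, SAL replicate 5 or SAL replicate 6. The share of all genes with an unadjusted p under 0.05 in either direction moved too. It was 4.5% with all pups, 6.42% without PNO replicate 5, 8.18% without SAL replicate 4 and 3.21% without PNO replicate 2. It was 8.99% without PNO replicate 1, 2.52% without SAL replicate 6 and 3.26% without SAL replicate 1. Shares without SAL replicate 3, PNO replicate 3 or SAL replicate 5 are not given here, so those counts stand without a background.

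Between IUO and SAL, IUO had the lower level in 31 of the 33 genes, where 52.0% of all genes were lower, and Qdpr and Gpr37 were the exceptions at 0.072 and 0.014. The median of the log2 fold changes was -0.46. No member passed an adjusted p of 0.05 in edgeR, as did no other gene (0.0%), and no member was called by DESeq2 (0.312% of all genes) or limma-voom (0.274%). At an unadjusted p under 0.05, 5 members were lower, where 3.87% of all genes passed as lower. These were Hapln2 (-1.93 ± 0.76), Mal (-1.27 ± 0.48), Ermn (-0.90 ± 0.42), Lpar1 (-0.48 ± 0.21) and Evi2a (-0.47 ± 0.21). The value of Hapln2 was -1.07 without SAL replicate 4, which had 20.8 CPM where the next SAL pup had 8.61. Their adjusted p from edgeR lay between 0.594 and 0.713. The value of Gpr37 turned negative under limma-voom (-0.16). The count of 5 was 17 without SAL replicate 6, the SAL pup with the lowest myelin genes, 11 without IUO replicate 1 and 8 without IUO replicate 2. It was 3 without IUO replicate 6, 2 without IUO replicate 3, 4 or 5 or SAL replicate 2, and 1 without SAL replicate 3 or 4. The share of all genes with an unadjusted p under 0.05 in either direction was 6.88% with all pups, 8.77% without SAL replicate 6, and between 5.14% and 7.88% without any other SAL or IUO pup. SAL lay between PNO and IUO in the median of the summed level, and since the comparisons share pups their values are not independent of each other.

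The 33 genes varied together from pup to pup also within groups. With the group means removed, the median correlation over the 528 pairs of genes was 0.88 across the 18 pups, and 81.4% of pairs were above 0.7. Over all genes tested the median was 0.00 and the share 4.25%. These correlations describe 18 libraries, and genes are not independent replicates. Mog (0.99), Mobp (0.99) and Fa2h (0.99) were closest to the mean of the other members, again with group means removed. Qdpr (0.31) and Cntn2 (-0.36) departed from it, and were singled out after their values were seen. Without these 2 genes 92.5% of pairs were above 0.7. The genes differed in how far they moved with the shared level. This was read with group means kept, per unit of the summed log2 CPM of the other members divided by 33, a value slightly below their mean. Hapln2 changed by 2.39, Mal by 1.93 and Mobp by 1.72, against 0.59 for Myrf, 0.36 for Plekhb1 and 0.05 for Qdpr.

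The spread within groups was wide for the level of expression. The median within-group SD of the 33 genes was 0.63 on the log2 scale, against 0.25 over all genes tested. Among genes of like expression, 18 of the 33 were above the 95th percentile of SD and 25 above the 90th. Hapln2 had the largest SD at 1.47 and Qdpr the smallest at 0.16.

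Outside the 33 genes, Nipal4, Cers2, Gltp and Galnt6 were among the 5 genes whose log2 CPM was most like the mean of the members over the 18 pups, with Pearson's r of 0.99, 0.98, 0.98 and 0.98. Cers2, a ceramide synthase for very long fatty acids, had 68.5 ± 16.7 CPM in PNO and 44.0 ± 9.16 CPM in IUO (SD, n = 6 each). Gltp, a glycolipid transfer protein, had 90.9 ± 25.3 and 59.1 ± 8.64 CPM. Their log2 fold changes were -0.64 ± 0.19 and -0.62 ± 0.21, with adjusted p-values from edgeR of 0.137 and 0.176. Nipal4 and Gltp also belong to the list of other mature oligodendrocyte genes below, and Cers2 to that of sphingolipid and fatty acid synthesis.

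**Figure D4:**
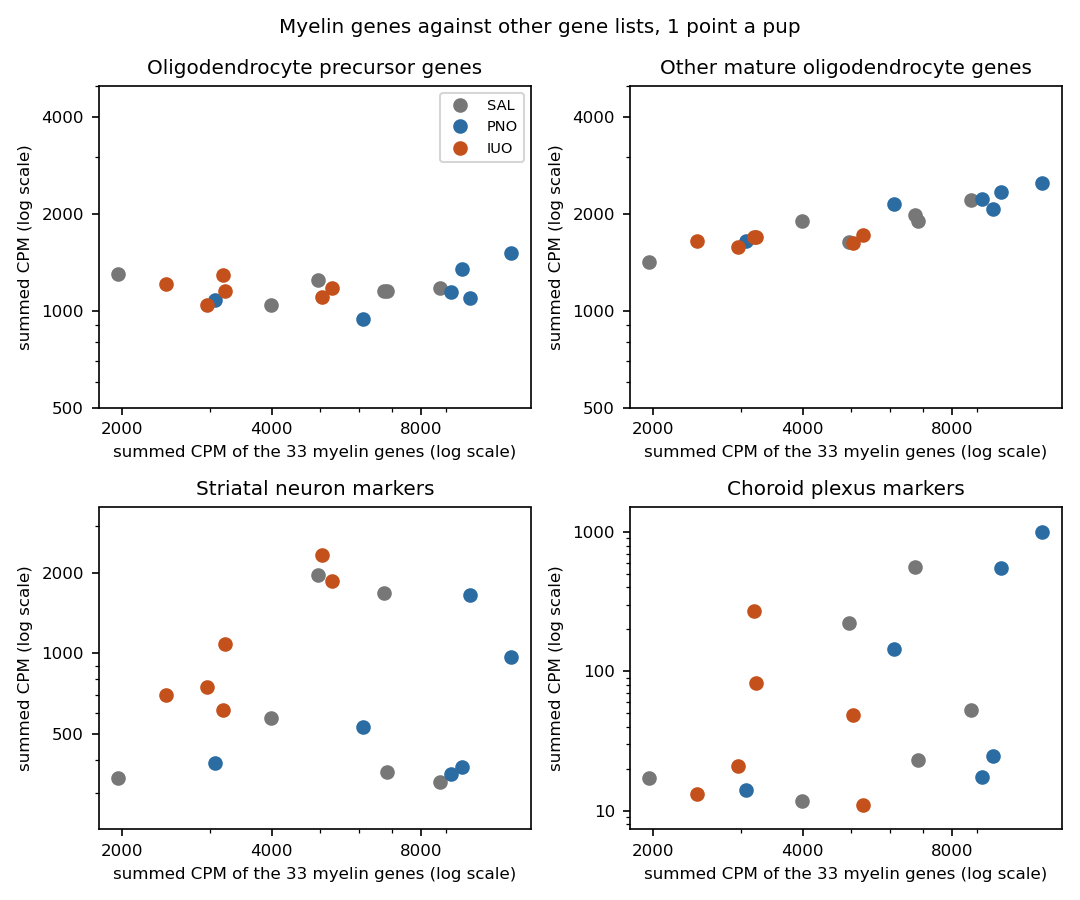
Summed CPM of 4 other gene lists (vertical, log axis) against the summed CPM of the 33 myelin genes (horizontal, log axis), with 1 point for each of the 18 pups colored by group. Precursor genes span 945.8 to 1512 CPM and the other mature oligodendrocyte genes 1416 to 2495 CPM, while the myelin genes span 1962 to 12190 CPM. Mbp holds much of the sum of the myelin genes and alone spans 686.8 to 6372 CPM.

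Genes of neighbouring stages and pathways were read from lists of their own. In IUO against PNO, 17 of 26 other mature oligodendrocyte genes were lower at an unadjusted p under 0.05 and none was higher, beside 9.14% of all genes lower and 6.14% higher, and the median was -0.62 on the log2 scale. Apod, the lipid carrier apolipoprotein D, had -1.76 ± 0.35 with an adjusted p of 0.0566 from edgeR, and Tmem88b had -1.54 ± 0.35 with an adjusted p of 0.0820. Of 15 genes of newly formed oligodendrocytes, 5 were lower and none higher, with a median of -0.28 and Sema4d, a semaphorin, at -0.70 ± 0.17 and Cnksr3, a scaffold protein, at -0.56 ± 0.21. Of 19 precursor genes, 3 were lower and 2 higher, with a median of -0.01. Among them Cspg5, a proteoglycan, was at 0.23 ± 0.09. No test compared the lists with each other. Over the 18 pups with group means removed, the mean standardized level of the members had a Pearson's r of 0.95 with that of the other mature genes, 0.76 with that of the newly formed stage and 0.45 with that of the precursors. The value for precursors was 0.51 in SAL, 0.64 in PNO and -0.32 in IUO, over 6 pups each. Without the 2 pups farthest from the median level of the members, the r with the precursors, here with group means kept, went from 0.41 to 0.074, and that with the other mature genes from 0.97 to 0.95.

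Genes of lipid synthesis were counted in 2 lists. Of 22 genes of cholesterol synthesis, 5 were higher in IUO than in PNO at an unadjusted p under 0.05, as were 6.14% of all genes, and none was lower, and the median was 0.09 on the log2 scale. Hsd17b7, a reductase of the pathway, had 0.40 ± 0.12, and Insig1, which restrains it, 0.27 ± 0.09. Of 17 genes of sphingolipid and fatty acid synthesis, 7 were lower, where 9.14% of all genes were lower, and 2 higher, with a median of -0.11. The fatty acid elongase Elovl7 had -0.86 ± 0.21 and the desaturase Degs1 -0.22 ± 0.06. Of 13 axonal partners of myelin at the node and paranode, 2 were lower, beside the same 9.14%, and none higher, with a median of 0.09. These were Cntnap1, the axonal paranode protein Caspr, at -0.46 ± 0.10 with an adjusted p of 0.0768 from edgeR, and Kcna2, a juxtaparanodal potassium channel, at -0.39 ± 0.15. No gene of these lists passed an adjusted p of 0.05.

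Markers of other tissue moved with the myelin genes in part. The 10 choroid plexus markers summed to 11.7 to 561.9 CPM in SAL, 14.0 to 1000 CPM in PNO and 11.1 to 271.0 CPM in IUO, and PNO replicates 1 and 3, the 2 pups with the highest myelin genes, also had the 2 highest sums of PNO, 1000 and 550.4 CPM. In IUO against PNO, 9 of the 10 were lower, 1 at an unadjusted p under 0.05, with Sostdc1 at -1.73 ± 0.68 and Otx2 at -1.38 ± 0.69 on the log2 scale. With their score as a covariate, an alternative chosen after seeing the data, the median log2 fold change of the members was -0.77 and 24 had an unadjusted p under 0.05, as did 14.6% of all genes. The 12 striatal markers summed to 330.7 to 1962 CPM in SAL, 353.7 to 1646 CPM in PNO and 612.7 to 2336 CPM in IUO, with the 2 highest IUO sums in replicates 1 and 2, the IUO pups with the highest myelin genes. All 12 were higher in IUO than in PNO, 1 at an unadjusted p under 0.05, Foxp1 at 0.66 ± 0.27, with Pde10a next at 0.88 ± 0.48. With the striatal score as a covariate in IUO against PNO, the members' median log2 fold change was -1.26 and 31 had an unadjusted p under 0.05, as did 15.7% of all genes, and no member had an adjusted p under 0.05. In PNO against SAL, all 10 choroid plexus markers had the higher mean in PNO, with a median of 0.67 on the log2 scale beside 0.54 for the members, and 11 of the 12 striatal markers had the lower, with a median of -0.23. In IUO against SAL, 8 of the 10 choroid plexus markers had the lower mean in IUO, with a median of -0.59, and all 12 striatal markers had the higher, with a median of 0.46. None of these markers had an unadjusted p under 0.05 in the comparisons with SAL. With the striatal score as a covariate the members' median log2 fold change was 0.54 in PNO against SAL and -0.68 in IUO against SAL, and with the choroid plexus score it was 0.40 and -0.36.

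Over the 18 pups with group means removed, the mean standardized level of the members had a Pearson's r of 0.54 with that of the choroid plexus markers, 0.43 with the striatal markers, 0.46 with the astrocyte markers, -0.66 with the neuron markers and -0.51 with the cortical layer markers. The value was 0.02 with the total count, but within groups of 6 pups it was 0.80 in PNO, -0.95 in IUO and -0.27 in SAL. For the choroid plexus markers it was 0.58 in SAL, 0.73 in PNO and -0.011 in IUO. For the striatal markers it was 0.23 in SAL, 0.50 in PNO and 0.87 in IUO, and 0.095 over the 18 pups with group means kept. For the meningeal fibroblast markers it was 0.0077 in SAL, -0.81 in PNO and -0.85 in IUO. For the axonal partners of myelin it was -0.89 in SAL, -0.011 in PNO and -0.92 in IUO. These values describe the 18 libraries. In IUO against PNO, 4 of 10 astrocyte markers were lower at an unadjusted p under 0.05, where 9.14% of all genes were lower and 6.14% higher, among them S100b at -0.57 ± 0.15 and Gfap at -0.36 ± 0.12, and 2 of 8 cortical layer markers were higher, Bcl11b at 1.00 ± 0.31 and Foxp2 at 0.78 ± 0.26. No marker of neurons (Tubb3 at 0.24 ± 0.12, Nrgn at -0.54 ± 0.31), endothelial cells (Slco1c1 at -0.19 ± 0.12, Esam at -0.20 ± 0.15) or mural cells (Myh11 at -0.25 ± 0.16, Pdgfrb at 0.15 ± 0.10) passed without correction. The same held for the 5 Schwann cell genes tested, of which Sox10, shared with oligodendrocytes, was at -0.28 ± 0.16 and Prx at 0.27 ± 0.17. Of 10 microglial markers 1 was lower at an unadjusted p under 0.05, Tmem119 at -1.32 ± 0.24 with an adjusted p of 0.0524 from edgeR. By the same threshold 1 of 7 meningeal fibroblast markers was lower, Dcn at -0.78 ± 0.37, with Col3a1 at 0.37 ± 0.30. It was passed by 2 of 4 rows of red blood cell genes, both higher, Alas2 at 1.26 ± 0.44 and Hba-a2 at 1.25 ± 0.49, and by 3 of the 4 in IUO against SAL, also higher. No choroid plexus, striatal, astrocyte, neuron, cortical layer, meningeal fibroblast or red blood cell marker was at 0 in any pup, whereas the Schwann cell gene Ncmap was at 0 in some pups. The part of dissection or cell content in the result was not tested beyond the fits with marker scores.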

How the data were processed

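TruSeq RNA-seq libraries were made from the PFC of 18 pups. Per gene and pup the authors deposited an expected count, which splits reads that match several genes between those genes and carries no normalization. The deposited TPM takes gene length into account and has a fixed total per pup, and the deposited FPKM, per length and per fragments, was not used. The aligner, quantification program, genome build and annotation are not given in the sources used here.

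Groups and replicate numbers came from the sample titles. After rounding of the expected counts, 1 model over the 3 groups was fitted in edgeR (version 4.0.16, R version 4.3.3) with TMM factors and genes kept by filterByExpr. Two-sided quasi-likelihood tests followed (glmQLFTest after glmQLFit), and p-values were adjusted by Benjamini-Hochberg over the 15703 genes tested. Levels between pups are TMM-normalized CPM, log2 CPM used a prior count of 2, and levels between genes are TPM. An SE is the absolute log2 fold change divided by the square root of F. Other settings tried were DESeq2 (version 1.42.0), limma-voom with sample quality weights (limma version 3.58.1), RLE size factors, no size factors, no filter, a filter of at least 1 CPM in at least 6 pups, the 12 pups compared alone, a replicate block, striatal or choroid plexus marker scores as covariates, and each pup left out in turn. The edgeR step was tested on simulated data. Python 3.11.15 with pandas 2.3.3, numpy 2.4.6, scipy 1.17.1 and matplotlib 3.10.9 made the tables and plots.

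All 45 pairs of pups of the same group differed by more than counting noise, the lowest chi-square over its degrees of freedom being 11.2. The 33 members, the gene lists and the tests were chosen with earlier results of these data known. All members are named. From each other list, genes with an adjusted p under 0.05 were to be named, or else the 2 with the smallest p in IUO against PNO. The 5 genes outside the 33 members that were most like the members' mean were to be named too. Some genes that this rule names are not reported here.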

Additional observations from a re-analysis of the deposited data

Results flagged for a closer look

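In 5 of the 99 combinations of a myelin gene and a group of 6 pups, 1 pup lay far from the other 5. The critical value used for this gap is passed by chance in about 1 of 20 groups. All 5 cases were PNO replicate 5, on the low side. Its log2 CPM was 1.78 for Nkx6-2, where the nearest PNO pup had 3.27. It was 1.72 for Ppp1r14a, with the nearest pup at 3.30, and 5.24 for Gsn, with the nearest at 6.34. It was 5.26 for Plekhb1, with the nearest at 5.95, and 8.11 for Sirt2, with the nearest at 8.84. The same pup had the lowest summed level of the 33 genes in PNO. Its share in the differences was measured by leaving it out, which raised the members called in IUO against PNO from 0 to 10. Over all genes the share called rose too, from 0.0637% to 0.601%.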

How the results depend on the processing

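Each fit was repeated under 10 other settings and with each of the 18 pups left out in turn. The median log2 fold change of the members kept its sign in these settings and ran from -1.26 to -0.77 in IUO against PNO, from -0.69 to -0.35 in IUO against SAL and from 0.36 to 0.70 in PNO against SAL. Of 2178 values of single members, 2101 kept their direction and side of the threshold, 56 passed only in the alternative and 21 turned in sign. Members called in IUO against PNO went from 0 (0.0637% of all genes) to 18 with DESeq2 (2.78%), 27 with limma-voom (12.9%) and 1 with only the 12 pups compared (0.469%). With a pup left out they were between 0 and 10, the 10 without PNO replicate 5 (0.601%). The cause of these differences between tools was not tested. Members with an unadjusted p under 0.05 in IUO against SAL went from 5 (6.88% of all genes) to 24 with limma-voom (17.3%), 16 with the striatal score (7.36%), 10 with only the 12 pups (7.36%), 3 with the choroid plexus score (7.18%) and 1 to 17 with a pup left out. In PNO against SAL they went from 5 (4.5% of all genes) to 10 with the striatal score (4.83%), 9 with DESeq2 (5.07%), 8 with no filter (4.26%), 3 with no library size normalization (4.86%), 2 with only the 12 pups (3.01%) or the choroid plexus score (4.29%) and 1 to 25 with a pup left out.

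The labels do not say what a replicate number shares between groups, and the numbers were not taken to pair the pups. The correlation of the deviations of same-numbered pups passed 0.1 in 4 of 6 pairs for PNO and SAL, 1 for IUO and SAL and 3 for IUO and PNO, and 6, 1 and 4 of the 12 pups correlated best with their own number. With the replicate number as a block no member was called. In PNO against SAL 9 members then had an unadjusted p under 0.05, beside 4.62% of all genes (median log2 fold change of the members 0.49), in IUO against SAL 7 beside 7.44% (-0.44), and in IUO against PNO 28 beside 16.5% (-0.93).

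Values that turned in sign were all near 0. Cntn2 in IUO against PNO was 0.13 with limma-voom, 0.066 with the striatal score and -0.16 to 0.068 with a pup left out. Gpr37 in IUO against SAL was -0.16, -0.19 and -0.11 to 0.15. Qdpr in IUO against PNO was -0.020 with limma-voom and -0.0077 to 0.092 with a pup left out, and in PNO against SAL -0.018 with no library size normalization and -0.032 to 0.077 with a pup left out. Tspan2 in IUO against SAL was -0.19 to 0.033 with a pup left out. The within-group SD of single members, which limits what 6 pups a group can resolve, ran from 0.16 to 1.47 on the log2 scale. How much counting error adds to the spread of Hapln2, which had 15 counts in 1 pup, was not tested.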
